A study of Mus musculus with 186 samples.

Results

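The genes of major histocompatibility complex (MHC) class I and class II antigen presentation were followed in lung and skin of the murine bleomycin model of scleroderma, a fibrotic disease of skin and internal organs. They were the 31 gene IDs of the count table, of 22095 in all, that GENCODE M21 pairs with a fixed list of symbols, and each symbol matched 1 ID. By role, 10 were class II genes, 10 class I genes, 6 peptide loading genes and 5 immunoproteasome genes, and 20 of the 31 lie on chromosome 17. The study injected female C57BL/6 mice of about 12 weeks with bleomycin, a DNA-damaging antibiotic, under the shaved skin between the shoulder blades at 10 mg/kg/day, 5 times per week for 2 weeks, and gave control mice phosphate-buffered saline (PBS). Groups taken at day 7 and day 14 had no oral dosing. Groups taken at day 21 and day 28 received oral vehicle, or, in bleomycin mice, SB525334 at 30 mpk BID, in each case from day 12. SB525334 is an inhibitor of the TGF-beta type I receptor kinase ALK5. The last dose was on day 27, after the day 21 groups had been taken. Both groups of day 42 carry the vehicle label. The superior lobe of the lung and a punch biopsy of skin were each sequenced in 93 libraries, in 24 groups of 7 to 9, and the labels tie no lung to a skin. They number the samples of a group without saying whether each is a separate mouse, so p-values measure the spread between these samples, which may be technical.

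Class I molecules are found on nearly all nucleated cells and show peptides of cytosolic proteins to CD8 T cells, while class II molecules are held mainly by dendritic cells, macrophages and B cells and show peptides of engulfed proteins to CD4 T cells. Interferon gamma induces both arms: NLRC5 is the transactivator of class I genes and CIITA that of class II genes. The immunoproteasome is the form of the proteasome whose catalytic subunits are exchanged under interferon, and its peptides are carried by TAP into the endoplasmic reticulum and loaded there onto class I molecules. Keratinocytes, Langerhans cells and dermal macrophages carry the pathway in skin, and alveolar epithelium and macrophages in lung.

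The promoters of 4 members are shown because they hold short motifs by which textbooks group these genes. They are the 250 bases before the transcript start (249 for B2m) in RefSeq's annotation of GRCm38.p6, 5′ to 3′ on the strand of the gene, with matches in capitals. H2-Aa lies at chr17:34287824-34288073 on the minus strand, H2-Eb1 at chr17:34305617-34305866 on the plus strand, H2-K1 at chr17:34000348-34000597 on the minus strand and B2m at chr2:122147437-122147685 on the plus strand.
H2-Aa: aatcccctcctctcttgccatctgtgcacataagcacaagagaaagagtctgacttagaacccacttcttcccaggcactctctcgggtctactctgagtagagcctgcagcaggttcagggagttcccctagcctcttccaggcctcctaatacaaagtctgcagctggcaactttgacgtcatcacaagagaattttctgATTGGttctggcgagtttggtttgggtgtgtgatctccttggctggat
H2-Eb1: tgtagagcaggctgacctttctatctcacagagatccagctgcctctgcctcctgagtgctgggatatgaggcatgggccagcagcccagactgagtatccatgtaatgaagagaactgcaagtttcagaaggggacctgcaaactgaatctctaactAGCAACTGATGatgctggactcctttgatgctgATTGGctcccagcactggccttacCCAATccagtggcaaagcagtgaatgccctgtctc
H2-K1: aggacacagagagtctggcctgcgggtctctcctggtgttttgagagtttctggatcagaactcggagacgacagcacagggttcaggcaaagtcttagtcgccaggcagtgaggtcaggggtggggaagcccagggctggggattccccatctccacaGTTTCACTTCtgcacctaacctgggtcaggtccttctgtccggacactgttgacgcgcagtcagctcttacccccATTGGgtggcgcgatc
B2m: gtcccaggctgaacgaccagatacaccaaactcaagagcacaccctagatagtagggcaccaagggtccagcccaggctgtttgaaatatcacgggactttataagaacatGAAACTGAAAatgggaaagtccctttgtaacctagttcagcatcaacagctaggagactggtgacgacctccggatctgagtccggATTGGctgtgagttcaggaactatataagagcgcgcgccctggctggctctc

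Each motif was searched on both strands. The Y box core, CCAAT or its complement ATTGG, was in 19 of the 25 members with a RefSeq promoter and in 33.8% of 32851 promoters. The core of the X box (capitals before the first ATTGG of H2-Eb1) was in 4 members, H2-DMb1, H2-Eb1, H2-Oa and Psmb10, and in 0.816% of promoters, and a longer form that contains it was in H2-DMb1 and in 0.201% of promoters. The class I interferon element (the first capitals of H2-K1, there on the other strand) was in 6 class I members, H2-K1, H2-D1, H2-M3, H2-Q4, H2-Q6 and H2-Q7, and in 0.11% of promoters. B2m, H2-T22 and H2-T23 held the core of the interferon-stimulated response element (the first capitals of B2m), which was in 2.98% of promoters, and H2-DMb2, H2-M3 and Psmb8 held the STAT core TTCNNNGAA, which was in 7.02%. The X box core and the class I element were added after these promoters had been read, and a match describes the letters of a window only.

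A lung library held 4.79 to 38.34 M counts (median 19.8; M for mega) and a skin library 14.68 to 43.07 M (median 19.68). Levels are CPM, counts scaled to library size, with TMM factors. Some libraries stood apart from the others of their tissue. By marker sums, ribosomal share or the share of the repeat-like gene Gm10800, 20 lung libraries were of unusual composition, among them 2 of 7 PBS, 5 of 7 bleomycin and 6 of 8 SB525334 lungs of day 28. At day 28 also 2 lung libraries went against their labels in the summed level of 10 macrophage markers, which was 1820 CPM in 1 PBS lung against 597.8 to 846.6 in the other 6, and 627.6 in 1 bleomycin lung against 1099 to 2517 in the other 6. In skin, 9 hair shaft genes summed to between 1.566 and 11230 CPM, and 21 libraries, 12 PBS and 9 bleomycin, were over a limit of 1000 CPM set after the values were seen. The tissues carried their defining markers: 8 alveolar type 2 cell genes, which include Lyz2 of macrophages, summed to 10480 to 42830 CPM in lung and 346 to 2079 in skin, and 6 keratinocyte genes to 3905 to 24200 CPM in skin and 2.387 to 788.9 in lung.

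In PBS mice the members spanned a wide range of levels. Per kilobase of exon, B2m, the light chain of class I molecules, was highest in both tissues, with a median of 1164 CPM per kb in lung and 1365 in skin over 39 libraries each. Cd74, the invariant chain that guards the class II groove, followed with 447.8 in lung and 508.7 in skin, and then the classical class I heavy chains H2-D1 (305 and 330.7) and H2-K1 (238 and 279.3). H2-Ab1, the beta chain of the class II molecule I-A, had a median of 87.74 CPM per kb in lung and 140.8 in skin. Nlrc5 stood at 8.274 in lung and 23.53 in skin, and Ciita at 5.083 and 4.332. The lowest member in both tissues was H2-Oa, a chain of the H2-O protein that holds back peptide exchange in B cells, with 2.649 in lung and 0.6441 in skin. Several members have near copies, so that the authors' estimates could have split reads between them: of all stretches of 50 bases, H2-T22 shared 34.5% with other genes (most with H2-T10), H2-Q6 32%, Psme2 28.3% (Psme2b), H2-Q7 26.4%, H2-DMb2 24.8% and H2-DMb1 22.7% (most with each other), H2-Q4 21.8%, H2-T23 13.6%, H2-D1 12.8% and H2-K1 9.63%. Values of these genes are uncertain to that extent.

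**Figure D1:**
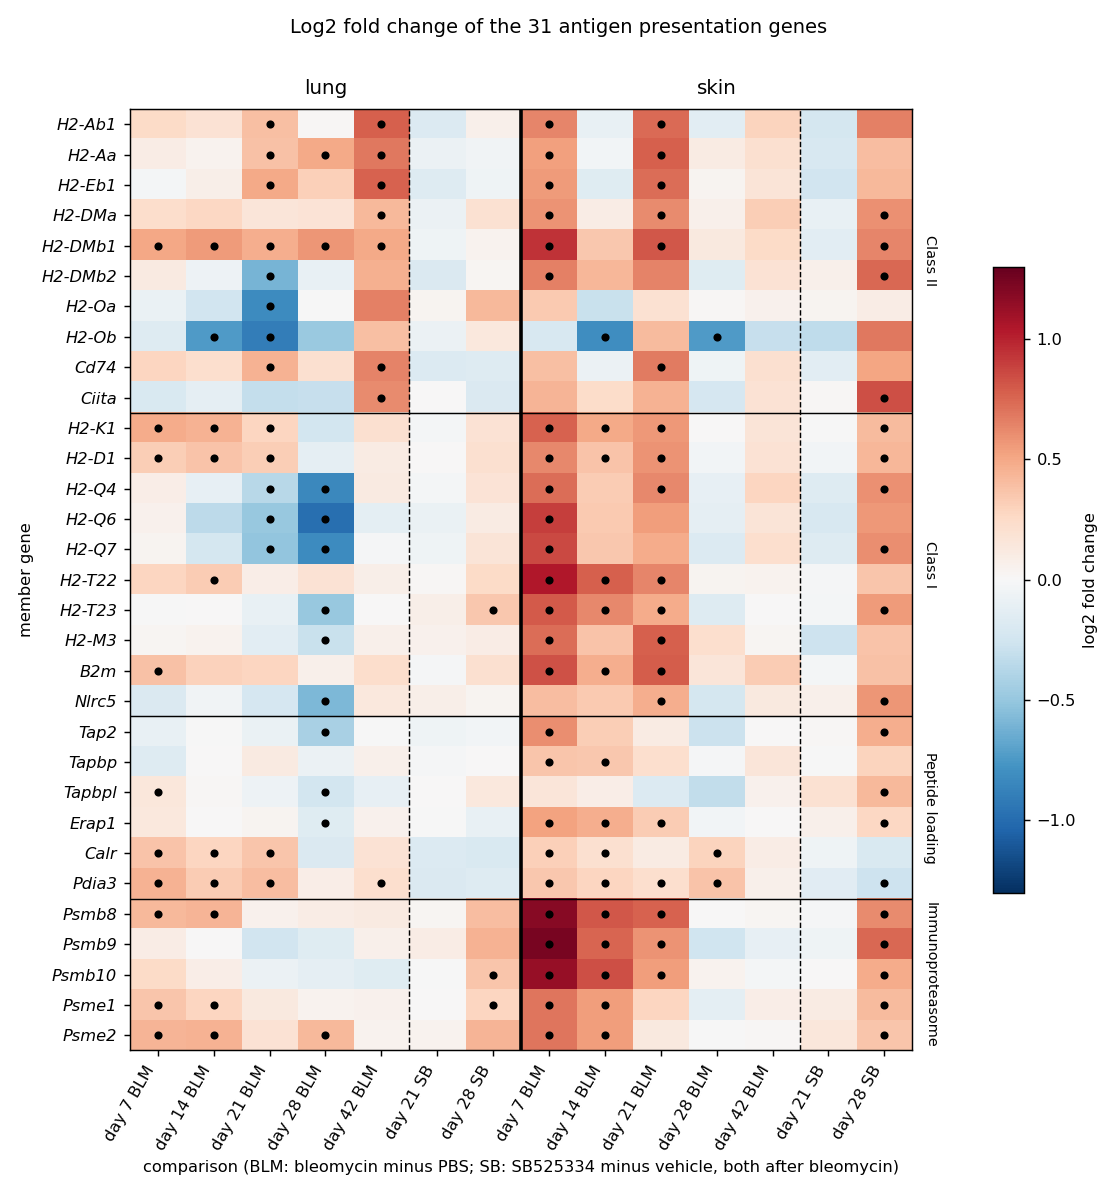
Log2 fold change (colour) of the 31 members (vertical axis, by role) in each comparison of bleomycin with PBS and of SB525334 with vehicle (horizontal axis), in lung and skin; a dot marks an adjusted p below 0.05 in edgeR. The skin columns of day 7, day 21 and day 28 under SB525334 hold the most increases (25, 19 and 18), lung day 42 holds 7 class II increases, and skin day 42 holds none.

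Skin at day 7 of the injections held the most increases of the 14 comparisons: 25 of 31 members rose and 0 fell, where 46.2% of all genes tested changed, 25.5% up and 20.7% down. All 5 immunoproteasome genes rose, 9 of 10 class I genes, 6 of 10 class II genes and 5 of 6 loading genes, with median log2 fold changes of 1.13, 0.78, 0.54 and 0.36 where the median of all genes tested lay within 0.07 of 0 in each comparison. Called genes passed a Benjamini-Hochberg adjusted p of 0.05 over all genes in edgeR's quasi-likelihood test, and values are log2 fold changes ± standard error. All 25 had the same sign in both plates, a batch given in the labels.

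Psmb9, a catalytic subunit of the immunoproteasome, was at 26.33, 45.79 and 56.44 CPM (lowest, median and highest of 7 skins) after bleomycin and at 12.05, 19.46 and 23.99 CPM in 8 PBS skins. The groups did not overlap, and Psmb9 rose by 1.23 ± 0.19 (adjusted p = 1.31e-07). Psmb8, the second of these subunits, was at 52.11, 96.19 and 122.8 CPM against 31.07, 40.04 and 52.66, a rise of 1.18 ± 0.20 (adjusted p = 9.26e-07) with 1 bleomycin skin within the PBS range. Psmb10, the remaining subunit, rose by 1.13 ± 0.16 and the proteasome activators Psme1 and Psme2 by 0.70 ± 0.12 each. Of 16 genes of the constitutive proteasome 15 also rose, with a lower median of 0.41. The share of all genes without overlap between groups is not given, here or below. A lack of overlap therefore does not set members apart from all genes.

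Among class I genes, H2-K1 was at 994.2, 1332 and 1662 CPM after bleomycin and at 596.4, 788.8 and 1105 CPM in PBS skin. It rose by 0.77 ± 0.15 (adjusted p = 4.11e-05), and 1 PBS skin lay within the bleomycin range. B2m was at 1158, 2694 and 3565 CPM against 1006, 1368 and 2045, a rise of 0.83 ± 0.19 (adjusted p = 0.000327). The largest class I rise was that of H2-T22, a nonclassical molecule seen by some gamma delta T cells, from a median of 98.46 to 194.5 CPM (1.04 ± 0.17, adjusted p = 4.79e-07). H2-Q6 and H2-Q7, which encode the Qa-2 antigen, rose by 0.90 and 0.86, and H2-T23, which encodes Qa-1, a ligand of inhibitory receptors on NK cells, by 0.80. The transactivator Nlrc5 did not pass (0.40, adjusted p = 0.0597), but did in edgeR without the skins over the hair limit, 1 in each of these groups (0.40, adjusted p = 0.00263), and with the summed hair markers as a term (0.38, adjusted p = 0.017).

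Of the class II genes the peptide exchange factors moved most in skin at day 7, H2-DMb1 by 0.94 ± 0.21 and H2-DMb2 by 0.65 ± 0.27. H2-Ab1 was at 283.6, 585.2 and 829.4 CPM against 287.8, 353.7 and 501.8, and rose by 0.63 ± 0.25 (adjusted p = 0.0328) with ranges that overlapped widely. Cd74 (0.39) and Ciita (0.44) did not pass. Without the skins over the hair limit both did (0.40 and 0.47, adjusted p = 0.0334 and 0.0274 in edgeR). That made 8 class II genes and 28 members in all. With the hair term neither Cd74 nor Ciita passed. For counts in alternative fits, here and below, the share of all genes called is not given. Such counts do not set the members apart from all genes. In the loading complex, Tap2, a subunit of the peptide transporter, was at 45.67, 67.41 and 90.39 CPM against 33.7, 47.02 and 54.96 and rose by 0.60 ± 0.15 (adjusted p = 0.00104). Erap1, which trims peptides to length, rose by 0.52, tapasin (Tapbp) by 0.36 and the chaperones Pdia3 and Calr by 0.35 and 0.31.

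Cell type markers moved in the same skins. Of 12 T and NK cell markers 10 rose, and their sum ran from 55.45 to 106.3 CPM after bleomycin and from 24.44 to 44.61 in PBS skin. Of 10 macrophage markers 8 rose as well (sum 1257 to 2299 against 993.3 to 1922 CPM), and of 10 dendritic cell markers 5. Markers of other cells moved too: 4 of 6 keratinocyte markers rose (sum 9507 to 14710 against 4986 to 8628 CPM, without overlap) and 5 of 6 skeletal muscle markers fell (626.3 to 2866 against 2785 to 14230 CPM). In bulk tissue more cells of a type and more RNA per cell cannot be told apart, and the part of these markers in the rise of the members was not tested. Of 16 interferon gamma axis genes tested in skin, 14 rose with a median of 1.21, among them Irf1 (0.78), a transcription factor induced by interferon. Ifng itself was too low in skin to be tested.

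At day 14, the end of the injections, members of the other 3 roles rose in skin, and 0 class II genes passed as higher. In all 14 members rose and 1 fell, where 59.6% of all genes changed, 31.5% up and 28.1% down: all 5 immunoproteasome genes (median 0.76), 5 class I genes (0.37) and 4 loading genes (0.30), while the class II genes had a median of -0.06. Psmb8 was at 65.03, 88.66 and 105.1 CPM in 8 bleomycin skins and at 34.78, 48.32 and 75.02 CPM in 8 PBS skins, and rose by 0.81 ± 0.19 (adjusted p = 0.000155) with 2 bleomycin skins within the PBS range. H2-K1 was at 973.5, 1262 and 1512 CPM against 764.2, 851 and 1230, a rise of 0.49 ± 0.15 (adjusted p = 0.00369). Psmb10, Psme1, H2-T22 and Erap1 did not overlap between the groups, but the share of all genes without overlap is not given here. H2-Ab1 (-0.10) and Cd74 (-0.08) did not pass, and H2-Ob, the other chain of H2-O, fell by 0.81 ± 0.26, from a median of 4.588 to 3.142 CPM. No skin of these groups was over the hair limit, but without the skins of other groups that were, which share the fit, 20 members rose and 1 fell, among them H2-DMb1 (0.32, adjusted p = 0.0439 in edgeR) and H2-DMb2 (0.41, adjusted p = 0.031) of class II. Of the interferon gamma axis 14 genes rose and 1 fell (median 0.93), and 9 of 12 T and NK cell markers rose. The sum of the keratinocyte markers was at 13760 to 22270 CPM against 6409 to 8994.

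A week after the last injection, at day 21, 19 members rose in skin and 0 fell, where 41.2% of all genes changed, 20.2% up and 21% down. H2-Ab1 was at 306.1, 505.1 and 662.9 CPM in 7 bleomycin skins and at 110.4, 297.7 and 528.8 CPM in 8 PBS skins, a rise of 0.74 ± 0.25 (adjusted p = 0.0136). Psmb8 was at 49.06, 59.13 and 83.36 CPM against 15.22, 42.77 and 51.91 (0.77 ± 0.20, adjusted p = 0.00101), and H2-K1 at 783.6, 947.8 and 1431 against 384, 785.3 and 911.1 (0.56 ± 0.16, adjusted p = 0.00263). The groups overlapped for every member, and the lowest PBS values came from skins rich in hair transcripts. Of the 8 PBS skins 3 were over the hair limit, with 8979 to 11230 CPM. Without the skins over the limit the 19 calls went to 4: B2m (0.37), H2-M3 (0.38) and Pdia3 (0.25) rose, Tapbpl, a peptide editor related to tapasin, fell by 0.48, and H2-Ab1 had 0.27, H2-K1 0.19 and Psmb8 0.33. With the summed hair markers as a term 23 members were called. The share of all genes called in the alternative fits is not given here, so such counts do not set the members apart from all genes. In the same skins 10 of 12 T and NK cell markers rose (sum 42.05 to 70.1 against 11.13 to 38.61 CPM), as did all 10 macrophage markers (1730 to 3035 against 483.7 to 1712 CPM), both sums without overlap, and 5 of 6 skeletal muscle markers (1278 to 6038 against 5.29 to 1636 CPM). The part of these markers in the rise of the members was not tested.

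PBS skins over the hair limit were low in several members. H2-K1 was at 371.2, 465.6 and 912.2 CPM in the 12 PBS skins over the limit and at 603.9, 844.2 and 1230 CPM in the other 27. H2-Ab1 was at 94.18, 156.2 and 391 CPM in them against 229.5, 407 and 587.5, and Nlrc5 at 77.95, 93.8 and 203.7 against 160.8, 211.3 and 284.5. Calr, a general chaperone, was not low there (442.3, 602 and 671.8 CPM against 346.8, 527.7 and 727.7). The 8 skins lowest in H2-K1 of all 93 were PBS skins over the limit, with 3143 to 11230 CPM of hair transcripts. In the 9 bleomycin skins over the limit H2-K1 was at 650.5, 745.9 and 994.2 CPM, and in the other 45 skins of bleomycin mice at 650.7, 1045 and 1662. These sets were drawn from measured values and are described without a test.

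**Figure D2:**
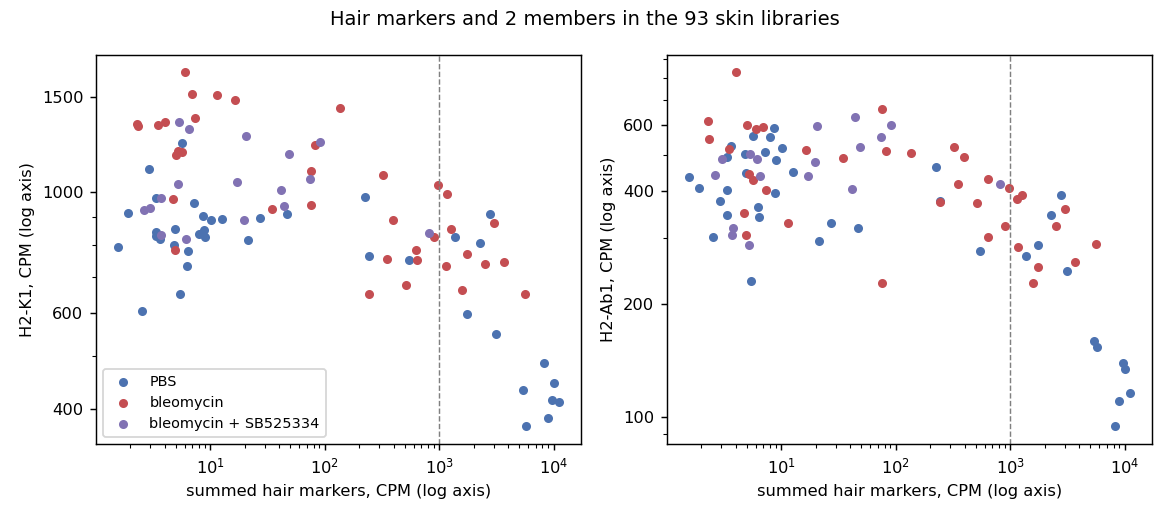
Level of H2-K1 and of H2-Ab1 in CPM (vertical axis, log scale) against the summed hair markers in CPM (horizontal axis, log scale) in 93 skin libraries, coloured by injection. PBS skins with the most hair transcripts, up to 11230 CPM, hold the lowest levels of both genes, while a bleomycin skin at 5670 CPM of hair transcripts lies higher, at 650.5 CPM of H2-K1 and 288.7 of H2-Ab1.

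Few members differed from PBS in skin at day 28 and day 42. At day 28, when 24.3% of all genes changed (12.7% up, 11.6% down), 2 members rose and 1 fell: Calr was at 466.2, 648.1 and 1001 CPM against 476, 558.6 and 633.4 (0.29 ± 0.09, adjusted p = 0.0104), Pdia3 rose by 0.37 ± 0.08 (adjusted p = 0.000141), and H2-Ob fell by 0.74 ± 0.28. Without the 3 bleomycin and 3 PBS skins over the hair limit 8 were called, with Calr (0.35) and Pdia3 (0.45) still up and H2-Ob (-1.09), Nlrc5 (-0.55), Psmb9 (-0.49), Tap2 (-0.49), Tapbpl (-0.47) and H2-T23 (-0.42) down. With the hair term 4 rose, Calr, Pdia3, H2-M3 (0.49) and B2m (0.43), and H2-Ob did not pass (-0.38, adjusted p = 0.21 in edgeR). At day 42, when 10.2% of all genes changed (5.28% up, 4.96% down), 0 members passed. Class II genes had a median of 0.20 there and class I genes 0.17, and 5 of 8 skins in each group were over the hair limit. With the hair term 8 members rose at day 42, and without those skins 0 did.

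The bleomycin effect in skin was tested between day 42 and day 14 directly. It was lower at day 42 for 8 members and higher for 0, where 50.9% of all genes differed (23% higher, 27.9% lower): Psmb9 (-0.87), Psmb10 (-0.87), Psmb8 (-0.78), H2-T22 (-0.73), H2-T23 (-0.61), Psme2 (-0.52), Psme1 (-0.46) and Erap1 (-0.46). These 8 of 31 are near the share of all genes that were lower. The count was 11 without the skins over the hair limit.

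In lung at day 7, 10 members rose and 0 fell, where 31.7% of all genes changed, 13.9% up and 17.8% down. H2-K1 was at 732.8, 804.3 and 1085 CPM in 7 bleomycin lungs and at 513, 609.7 and 676.9 CPM in 8 PBS lungs. The groups did not overlap, and H2-K1 rose by 0.48 ± 0.10 (adjusted p = 0.000198). Psmb8 was at 54.11, 57.23 and 73.15 CPM against 42.49, 45.3 and 49.04, again without overlap (0.42 ± 0.14, adjusted p = 0.0151), and B2m at 878.3, 1035 and 1503 against 705.2, 830.5 and 1001 (0.38 ± 0.15, adjusted p = 0.0449). Pdia3 had the smallest adjusted p of the members (0.45 ± 0.06, adjusted p = 1.11e-08), with 402.9, 479.6 and 501.7 CPM against 292.1, 337.3 and 363.5, and Calr was at 523.8, 643.9 and 741.1 against 449.8, 504.4 and 553.6 (0.37 ± 0.11). H2-DMb1 (0.50) was the class II gene that rose, and H2-Ab1 (0.25), Cd74 (0.28), Ciita (-0.20), Nlrc5 (-0.19) and Tap2 (-0.10) did not pass. Without the libraries of unusual composition, 2 in each of these groups, B2m (0.17, adjusted p = 0.254 in edgeR) and Tapbpl (0.09) lost the call, and H2-T22 (0.22) and Psmb10 (0.24) gained it.

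In lung at day 14, 9 members rose and 1 fell, where 46.4% of all genes changed, 21% up and 25.4% down. H2-K1 was at 718.1, 874.7 and 968.5 CPM in 8 bleomycin lungs and at 552.8, 642.3 and 689.1 CPM in 8 PBS lungs, without overlap (0.45 ± 0.10, adjusted p = 0.000149). Psmb8 was at 53.67, 66.7 and 72.32 CPM against 43.94, 46.26 and 59.02 (0.44 ± 0.13, adjusted p = 0.00544). Of H2-D1 (0.37), H2-T22 (0.33), Psme1 (0.28) and Psme2 (0.45), which also rose, H2-D1 alone overlapped between the groups. H2-Ob fell by 0.74 ± 0.22, from 14.43, 19.24 and 30.17 to 5.243, 11.43 and 19.86 CPM. All 16 constitutive proteasome genes rose on that day (median 0.40), while of 17 interferon gamma axis genes 6 rose and 3 fell, with Irf1 at -0.31. All 10 macrophage markers rose in these lungs (sum 1159 to 1593 against 503.8 to 878.5 CPM) and all 6 endothelial markers fell (1729 to 2312 against 2316 to 3134 CPM). The sum of the dendritic cell markers was higher as well (224.5 to 316.7 against 179.8 to 223.2 CPM), with 4 of 10 up and 3 down, and 7 of 10 B cell markers fell. None of the first 3 sums overlapped between the groups, and the part of these markers was not tested. Without the libraries of unusual composition, 2 of them PBS lungs of this day, 11 members rose and 2 fell.

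Lung day 21 split the class II genes, with 9 members up and 6 down where 35.3% of all genes changed, 15.9% up and 19.4% down. H2-Ab1 was at 258.4, 302.7 and 392.7 CPM in 7 bleomycin lungs and at 209, 235.9 and 287 CPM in 8 PBS lungs, and rose by 0.39 ± 0.13 (adjusted p = 0.0158). Cd74 was at 895.3, 1131 and 1220 CPM against 709.6, 788.4 and 945.9 (0.45 ± 0.11, adjusted p = 0.00128), and H2-Aa, H2-Eb1 and H2-DMb1 rose by 0.38, 0.49 and 0.47. H2-Ob went the other way without overlap, at 15.44, 22.95 and 25.07 CPM against 26.44, 38.45 and 61.96 (-0.90 ± 0.23, adjusted p = 0.0011), as did H2-Oa (-0.82) and H2-DMb2 (-0.60). Among class I genes H2-K1 (0.28) and H2-D1 (0.32) rose, while H2-Q7 fell without overlap, to 91.92, 109.3 and 114.6 CPM from 120.8, 143.7 and 196.8 (-0.51 ± 0.15), and H2-Q6 and H2-Q4 fell by 0.49 and 0.36.

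H2-O is made mainly by B cells, and B cell markers were lower in the same lungs: 9 of 10 fell, and their sum was at 111.2, 163.2 and 202.7 CPM after bleomycin against 262.9, 336.2 and 535.4 CPM. Of 12 T and NK cell markers 10 fell (sum 69.7 to 100.1 against 119.9 to 173.5 CPM). All 10 macrophage markers rose (sum 1127 to 1739 against 558.1 to 623.6 CPM). None of these 3 sums overlapped between the groups, and their part in the members' changes was not tested.

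At day 28, 3 members rose in lung and 9 fell, where 38.1% of all genes changed (19.7% up, 18.4% down), and no member was free of overlap. The falls were of class I genes and their machinery. H2-Q6 was at 45.4, 55.8 and 106.2 CPM in 7 bleomycin lungs and at 80.42, 104.1 and 202.3 CPM in 7 PBS lungs (-0.98 ± 0.18, adjusted p = 1.69e-05), and H2-Q4 and H2-Q7 fell by 0.84 and 0.82. Nlrc5 was at 47.37, 59.02 and 81.16 CPM against 50.19, 85.11 and 170.7 (-0.58 ± 0.17, adjusted p = 0.00705), and Tap2 at 36.64, 49.3 and 66.13 against 42.3, 66 and 92.54 (-0.42 ± 0.10, adjusted p = 0.00123). Irf1 (-0.67) and Ifng (-1.48) fell too, with 9 of 17 interferon gamma axis genes down. H2-DMb1 (0.57), H2-Aa (0.49) and Psme2 (0.42) rose, but had the opposite sign in plate 2. That plate held both lungs of this day whose macrophage markers went against their labels.

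Day 28 in lung rests on few libraries of usual composition and on the 2 whose macrophage markers went against their labels. Without those 2 lungs, 9 members rose and 8 fell. H2-DMb1 (0.82), H2-Aa (0.74), H2-Eb1 (0.59), Psme2 (0.55), Cd74 (0.52), B2m (0.39), H2-T22 (0.38), H2-Ab1 (0.36) and Pdia3 (0.20) were then up, and H2-Q6 (-0.99), H2-Q4 (-0.79), H2-Ob (-0.70), H2-Q7 (-0.68), Nlrc5 (-0.43), Tap2 (-0.41), H2-T23 (-0.38) and Tapbpl (-0.22) down. The PBS lung of the pair held the highest H2-Ab1 (653 CPM), Cd74 (1819) and B2m (2866) of its group. Without the 20 libraries of unusual composition, which left 2 of 7 bleomycin lungs (1 of them against its label) and 5 of 7 PBS lungs, 0 members passed, and H2-Aa (-0.16), H2-DMb1 (-0.17) and Psme2 (-0.21) took the opposite sign. In the fit of the 2 groups alone 1 member passed. Depth was also low in some lungs of this day, where the lung median was 19.8 M counts. A PBS lung held 4.79 M, bleomycin lungs 6.94 and 9.83 M, and SB525334 lungs 4.88 and 6.09 M. The other lungs of these groups held 11.57 to 21.39 M.

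At day 42, 4 weeks after the injections, class II genes rose in lung: 8 members rose and 0 fell, 7 of them class II, where 19.4% of all genes changed, 12.6% up and 6.77% down. H2-Ab1 was at 325.2, 396.3 and 522.3 CPM in 8 bleomycin lungs and at 213.7, 232.7 and 264 CPM in 8 PBS lungs (0.78 ± 0.13, adjusted p = 1.99e-06). Cd74 was at 1055, 1165 and 1624 CPM against 673.4, 792.2 and 917.3 (0.64 ± 0.11, adjusted p = 5.7e-06). H2-Aa (0.69 ± 0.14), H2-Eb1 (0.77 ± 0.13) and H2-DMb1 (0.49 ± 0.14), like these 2 genes, did not overlap between the groups. H2-Eb1 is the beta chain of I-E, whose alpha chain C57BL/6 mice do not make.

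Ciita, the class II transactivator, was at 51.36, 74.7 and 144.2 CPM against 37.19, 57.59 and 60.77 and rose by 0.61 ± 0.16 (adjusted p = 0.00321). H2-DMa rose by 0.42 and Pdia3 by 0.22. No class I or immunoproteasome gene passed (medians 0.10 and 0.06). The highest Ciita value came from a lung with 1189 CPM of summed B cell markers and liver transcripts. Without the libraries of unusual composition, which include it, the same 8 were called, with H2-Ab1 at 0.71, Cd74 at 0.56 and Ciita at 0.46. All 10 macrophage markers rose on day 42 (sum 912.7 to 1327 against 538.5 to 635.6 CPM), 5 of 10 dendritic cell markers rose and 1 fell, and 3 of 10 B cell markers rose. Alveolar macrophage markers went down, 5 of 8 with 1 up (sum 304.3 to 616 against 673.4 to 961.3 CPM), as did 3 of 6 endothelial markers (1394 to 2691 against 2843 to 3073 CPM). The part of these markers in the rise of the class II genes was not tested.

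**Figure D3:**
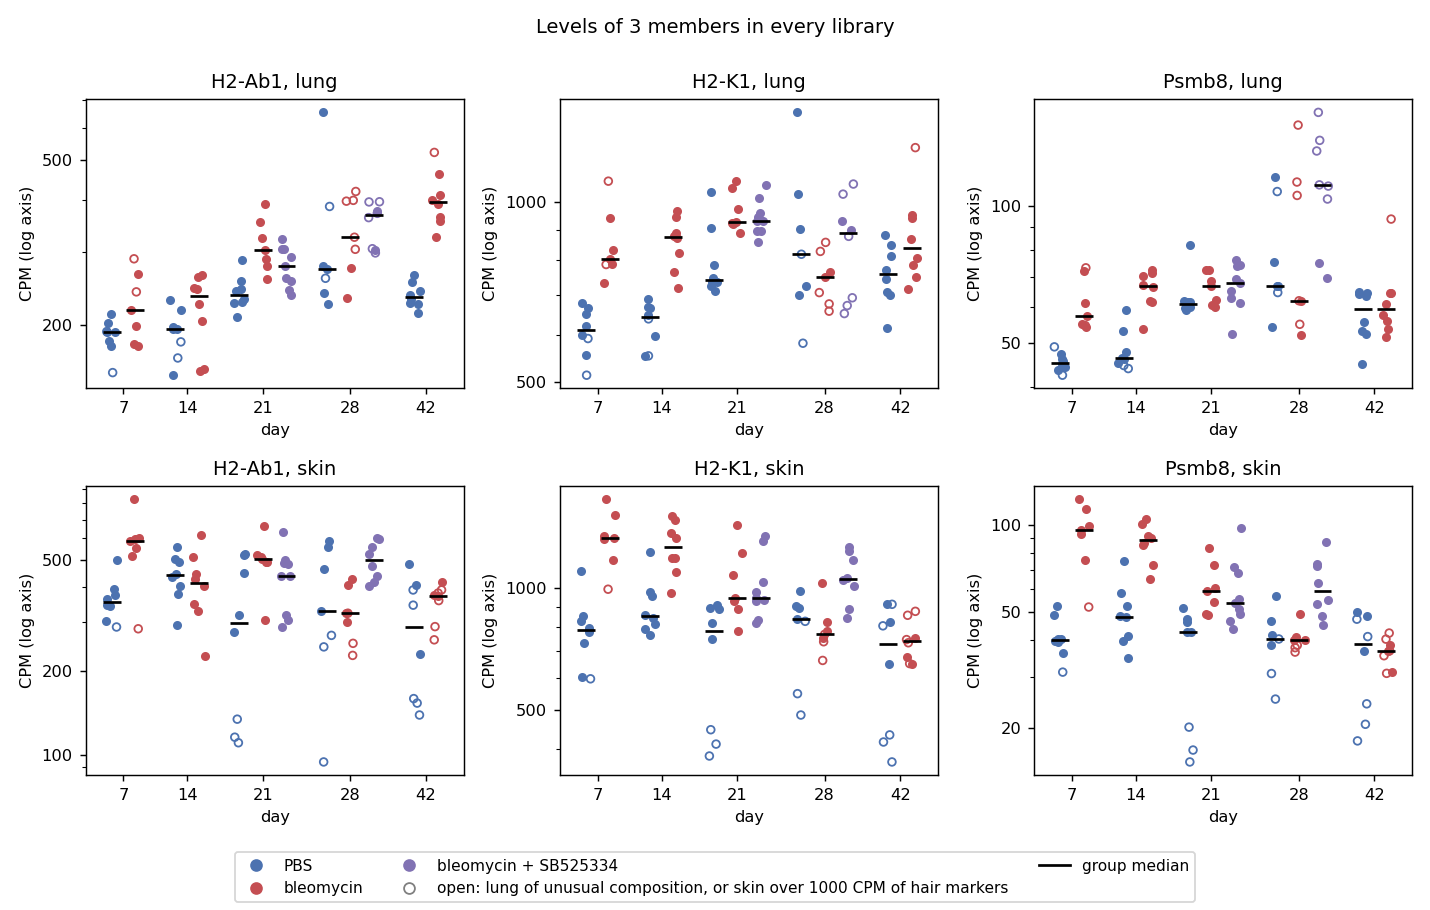
Level of selected members in CPM (vertical axis) in each library of lung and skin by day (horizontal axis), with PBS, bleomycin and SB525334 groups in separate colours and the group median as a bar. In lung at day 42 H2-Ab1 lies at 325.2 CPM or more after bleomycin and at 264 or less in PBS; in skin at day 7 Psmb8 lies mostly above the PBS libraries.

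Tested directly, the lung bleomycin effect was higher at day 42 than at day 14 for 5 members and lower for 0, where 15.3% of all genes differed (10.7% higher, 4.67% lower). These were H2-Ob (1.12), Ciita (0.73), H2-Eb1 (0.68), H2-Aa (0.64) and H2-Ab1 (0.58), all class II genes. Without the libraries of unusual composition it was higher for 6 and lower for 5.

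The bleomycin effect was also compared between the tissues on each day, as the signed value in skin minus that in lung. An effect larger in skin can thus come from a fall in lung. At day 7 it was larger in skin than in lung for 11 members and smaller for 0, where 16.6% of all genes differed (8.62% larger, 7.98% smaller): Psmb9 (by 1.09), Psmb10 (0.83), H2-Q6 (0.80), H2-Q7 (0.77), H2-T23 (0.77), Psmb8 (0.71), H2-T22 (0.71), Tap2 (0.65), H2-M3 (0.64), Tapbp (0.48) and Erap1 (0.34). It was larger for 16 without the skins over the hair limit, among them H2-Eb1 (0.60) and Ciita (0.67) of class II. At day 14 it was larger for 4 and smaller for 0, a lower share than that of all genes: Psmb9 (0.71), Psmb10 (0.71), H2-T23 (0.58) and Erap1 (0.41), where 32.3% of all genes differed (15.6% larger, 16.7% smaller). It was larger for 8 without the skins over the hair limit.

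At day 21 the effect was larger in skin for 11 members, where 30.1% of all genes differed (13.5% larger, 16.6% smaller). H2-Ob (1.26) and H2-DMb2 (1.18) led, followed by H2-Q6 (0.97), H2-Q7 (0.93), H2-Q4 (0.92), H2-M3 (0.86), Psmb9 (0.77), Psmb8 (0.65), Nlrc5 (0.63), Psmb10 (0.57) and H2-T23 (0.52). Of these H2-Ob, H2-DMb2, H2-Q6, H2-Q7 and H2-Q4 had fallen in lung on that day. Without the skins over the hair limit 2 members differed on that day, 1 in each direction. At day 28 skin minus lung was higher for 4, H2-Q6 (0.82), H2-Q4 (0.71), Calr (0.45) and Pdia3 (0.25), where 26% of all genes differed (10.6% higher, 15.4% lower). H2-Q6 and H2-Q4 had fallen in lung on that day, and no class I gene passed in skin. Without the 2 lungs against their labels H2-Q6 (0.82) and H2-Q4 (0.64) were higher there and H2-DMb1 (-0.73) and Psme2 (-0.60) lower in skin than in lung, and without the lungs of unusual composition 0 differed. At day 42 it was larger for 0 members and smaller for 0, where 12.1% of all genes differed (4.98% larger, 7.13% smaller).

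**Figure D4:**
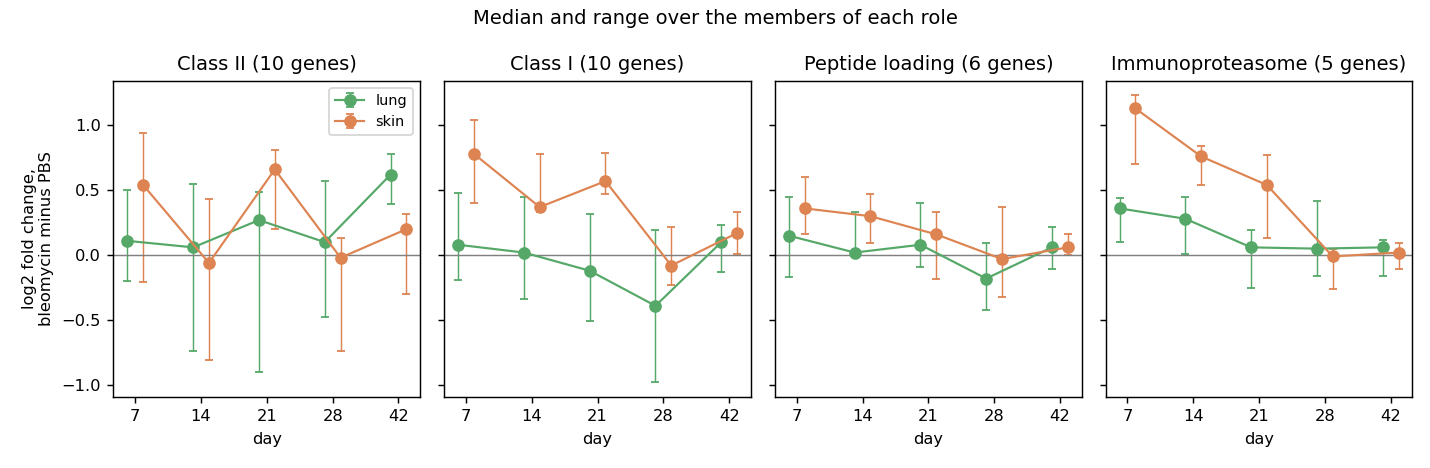
Median log2 fold change of bleomycin against PBS (vertical axis) by day (horizontal axis) for the 4 roles in lung and skin. Bars run from the lowest to the highest member of the role, and a grey line marks no change. In skin the immunoproteasome stands highest at day 7 (1.13); in lung the class II genes stand highest at day 42 (0.62) and the class I genes lowest at day 28 (-0.39).

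The ALK5 inhibitor was compared with vehicle in bleomycin mice. In lung at day 21, 0 members passed, where 0.403% of all genes changed (0.179% up, 0.224% down). In lung at day 28, 3 rose, H2-T23 (0.35 ± 0.11), Psmb10 (0.36 ± 0.11) and Psme1 (0.28 ± 0.09), where 8.37% of all genes changed (2.64% up, 5.73% down). Of 12 T and NK cell markers 5 rose with them, and Ifng by 1.58. Without the libraries of unusual composition, which left 2 lungs in each group, 0 passed. Without the 2 lungs against their labels H2-T23 (0.41), Psmb10 (0.38) and Tapbpl (0.18) rose and Pdia3 fell by 0.21.

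In skin at day 21, 0 members passed under SB525334, where 11.8% of all genes changed (5.81% up, 6.02% down). Summed hair markers were at 5.28 CPM in the median inhibitor skin and 83.05 in the median vehicle skin. With the hair term 11 members fell, and without the skins over the limit Tapbpl rose (0.21) and no other member passed. The share of all genes called in these alternative fits is not given here.

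Skin at day 28 held the most calls of the inhibitor comparisons: 18 members rose and 1 fell, where 23.9% of all genes changed, 12.2% up and 11.6% down. Ciita was at 39.67, 57.64 and 85.84 CPM in 8 inhibitor skins and at 23.54, 34.34 and 47.87 CPM in 7 vehicle skins, the largest rise of the members (0.84 ± 0.24, adjusted p = 0.00793). Nlrc5 was at 191.5, 251 and 296.9 CPM against 144.4, 161.8 and 219.5 (0.57 ± 0.18, adjusted p = 0.0159). H2-T23 was at 139.2, 175.2 and 212.3 CPM against 108.6, 116 and 133.8, without overlap (0.55 ± 0.17). All 5 immunoproteasome genes rose, led by Psmb9 (0.75 ± 0.19, adjusted p = 0.00203), and H2-K1 rose by 0.41 ± 0.16 (adjusted p = 0.0436). Of the class II genes H2-DMb2 (0.75), H2-DMb1 (0.63) and H2-DMa (0.59) rose, and H2-Ab1 did not pass (0.65, adjusted p = 0.0511). Pdia3 fell by 0.27 ± 0.07 (adjusted p = 0.00552).

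Of the interferon gamma axis 1 of 16 genes rose in these skins, and 5 of 10 dendritic cell markers rose. Hair transcripts moved with the treatment: their sum ran from 17.29 to 822.2 CPM in inhibitor skins and from 634.5 to 2537 CPM in vehicle skins. Without the 3 vehicle skins over the limit 17 members rose and 1 fell, with Ciita at 0.75 and Psmb9 at 0.71. With the hair term 1 member was called, Pdia3 (-0.24). The sums of the groups shared only the range from 634.5 to 822.2 CPM. For these alternative counts too, the share of all genes called is not given here.

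Over single libraries, after the mean of each group and plate was taken away, class II level moved with that of its transactivator. In 93 skins H2-Ab1 and Ciita had r = 0.94 and rho = 0.91 (permutation p = 1e-05 for each, the smallest that 100000 permutations can give), r = 0.92 without the 2 libraries farthest from the median of Ciita, and r = 0.93 and 0.95 in the plates. In 91 lungs they had r = 0.54 and rho = 0.46 (permutation p = 1e-05 and 3e-05), 0.49 without the 2 farthest, and 0.31 and 0.70 in the plates. H2-K1 and Nlrc5 had r = 0.91 and rho = 0.86 in skin (permutation p = 1e-05 each; 0.89 without 2; 0.89 and 0.93 in the plates) and r = 0.54 and rho = 0.49 in lung (permutation p = 1e-05 and 2e-05; 0.47 without 2; 0.60 and 0.45 in the plates). Without the skins over the hair limit the skin values were 0.87 and 0.71 over 68 libraries.

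**Figure D5:**
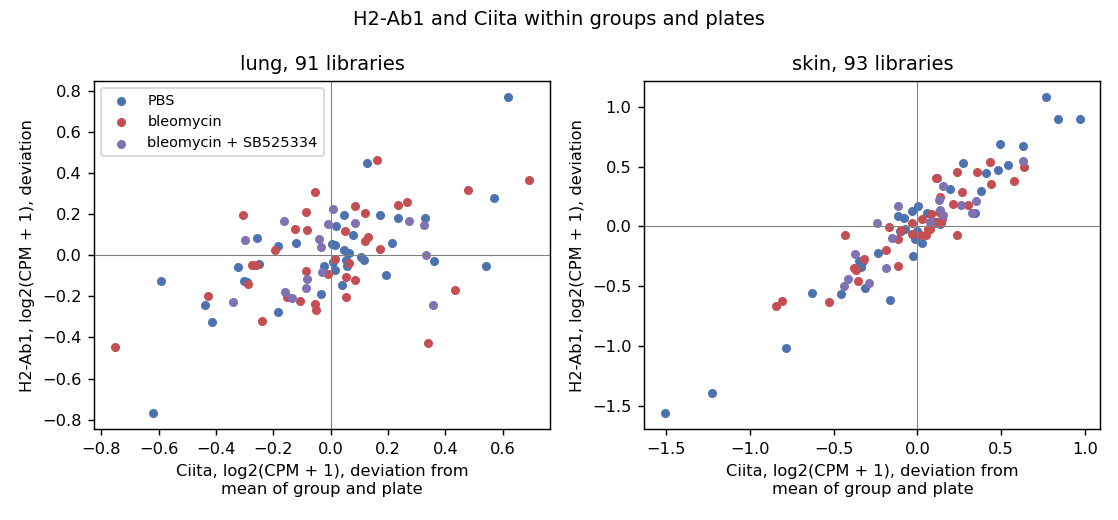
Deviation of H2-Ab1 (vertical axis) from the mean of its group and plate, in log2(CPM + 1), against that of Ciita (horizontal axis), in 91 lung and 93 skin libraries. The skin points lie close to a line (r = 0.94) and the lung points spread more widely (r = 0.54).

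H2-Ab1 also moved with the summed dendritic cell markers, with r = 0.93 and rho = 0.87 in skin and r = 0.47 and rho = 0.54 in lung (permutation p = 1e-05 for each; 0.91 and 0.49 without the 2 farthest; 0.94 and 0.92 in the skin plates and 0.31 and 0.61 in the lung plates). With macrophage markers it had r = 0.70 and rho = 0.65 in skin and 0.51 and 0.40 in lung (permutation p from 1e-05 to 9e-05; 0.64 and 0.33 without the 2 farthest; 0.74 and 0.66 in the skin plates, 0.48 and 0.54 in the lung plates). With B cell markers it had r = 0.54 and rho = 0.46 in skin (permutation p = 1e-05 each; 0.49 without 2; 0.64 and 0.42 in the plates) and r = 0.20 and rho = 0.22 in lung (permutation p = 0.057 and 0.0361; 0.13 without 2; 0.20 in each plate). These were 10 relations. After Benjamini-Hochberg adjustment over them, r of H2-Ab1 with B cell markers in lung had p = 0.057 by permutation, and the other adjusted values of r were 2e-05 or less. Without the skins over the hair limit the relation with B cell markers in skin was 0.25, with 0.55 in plate 1 and -0.05 in plate 2, that with macrophage markers 0.35 (0.49 and 0.18), and that with dendritic cell markers 0.90 (0.89 and 0.91).

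The other genes of the pathway, taken from lists, moved as follows. Of 16 class II co-factors and handling genes tested, 8 rose in skin on each of days 7, 14 and 21 and 5 to 8 in lung over the 5 days, with at most 3 falling. Of all genes, 25.5%, 31.5% and 20.2% rose in skin on those days, and 20.7%, 28.1% and 21% fell. In lung 12.6% to 21% rose and 6.77% to 25.4% fell. The counts of this list in skin at day 28 and day 42 are not given here. Ctss, the protease that cuts the invariant chain, rose in all 10 comparisons of bleomycin with PBS (0.92, 2.13, 2.24, 1.16 and 1.38 in lung and 1.5, 1.6, 1.48, 0.75 and 0.79 in skin by day), as did Lgmn, an endosomal protease, and Cd80, a costimulatory ligand. Rfx5, which binds the X box, changed by no more than 0.20. Tap1, the partner of Tap2, rose in skin at day 7 (0.93), day 14 (0.74), day 21 (0.52) and under SB525334 at day 28 (0.52), and fell in lung at day 28 (-0.53). Canx, a chaperone of new class I chains, rose in both tissues at days 7, 14 and 21.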

How the data were processed

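Total RNA of lung and skin was sequenced after ribosomal RNA removal with a stranded kit, per the labels. The authors deposited expected counts per gene, made with RSEM on GRCm38 per the submitters' processing notes, and log2 CPM corrected for plate, made with edgeR per the same notes. The aligner and all versions are not given in the sources used here. Of the counts 83.9% were whole (to within 1e-09), and all were rounded. The members, the gene lists and the rule for named genes (every member by role, those with the smallest p first) were chosen with earlier results of these data known.

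In R 4.3.3, edgeR 4.0.16 gave a quasi-likelihood F test per gene after filterByExpr and TMM scaling, from 1 fit per tissue over all 12 groups with plate as a term (15647 genes in lung, 15825 in skin), and with Benjamini-Hochberg adjustment over all genes. Tissues were compared in a joint fit of 16585 genes with a plate term per tissue. A standard error is the size of the log2 fold change divided by the root of F. All 31 members passed the filter on low counts. Tested on simulated day 14 data, the fit found 94 of 100 genes with a 2-fold and 85 of 100 with a 1.5-fold change in lung (5 false calls), and in skin 90 and 70 (14 false calls). The simulation changed only these genes, drawn from the better expressed, and held no plate effect or other difference between groups. In the real day 14 data 46.4% of genes in lung and 59.6% in skin were called, so these rates need not hold there. Correlations used log2(CPM + 1). Alternatives were RLE factors, no filter, no plate term, DESeq2 1.42.0, limma 3.58.1 on the deposited log2 values, the 2 groups alone, a replicate block and fits without unusual libraries; those on hair markers and on 2 day 28 lungs were chosen after seeing the data. Gene names came from GENCODE M21, which paired 21929 of 22095 IDs.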

Additional observations from a re-analysis of the deposited data

Results flagged for a closer look

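In 216 groups tested (9 members in 24 groups) 19 held a library that stood apart from the rest of its group by Dixon's rule, which by chance marks about 1 in 20 groups. 3 of them were in the PBS lung of day 28 whose macrophage markers went against its label, with H2-Ab1 at 653 CPM, Cd74 at 1819 and B2m at 2866. Another 4 were in the bleomycin lung of day 42 with liver transcripts and 1189 CPM of B cell markers, with Ciita at 144.2 CPM, H2-K1 at 1235, Nlrc5 at 147.1 and Psmb8 at 93.61. A PBS lung of day 21 was high in Nlrc5 (143.6 CPM) and Psmb8 (82.29), and a bleomycin skin of day 28 in Nlrc5 (219.5), Psmb8 (49.22) and Tap2 (50.23). Single values stood apart for B2m in a PBS lung of day 21 (low, 799.4 CPM) and a bleomycin skin of day 28 (2127), Cd74 in a PBS skin of day 7 (1274), H2-K1 in a PBS skin of day 14 (1230), Nlrc5 in a bleomycin lung of day 7 (64.95) and a bleomycin skin of day 21 (307), and Tap2 in a bleomycin lung of day 7 (low, 43.03).

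The bleomycin effect differed between skin and lung, by edgeR's test of the difference, for 11 members at day 7, 4 at day 14, 11 at day 21 and 4 at day 28, where 16.6%, 32.3%, 30.1% and 26% of all genes differed. Of 31 members, 4 is a lower share than that of all genes on both days. Without the skins over the hair limit the 11 of day 21 went to 2. Between day 42 and day 14 it differed for 5 members in lung and 8 in skin, where 15.3% and 50.9% of all genes differed. Of 31 members, 5 is near the first share and 8 is below the second.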

How the results depend on the processing

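Counts of called members were recomputed under the alternatives 175 times, and 146 stayed within 1.5 times the reported count. The share of all genes called in each alternative fit is not given here. These counts therefore do not tell a change of the members from a change across all genes. Of 5425 values of single members 5075 stayed on their side of the threshold, 185 lost the call, 162 gained it and 3 reversed. A change of sign was counted as reversed only where either fit called the gene. The 5075 can therefore include uncalled values that changed sign. With the 2 groups alone the counts were 16 in lung at day 7, 1 in lung at day 28, 2 and 0 for SB525334 in lung at day 21 and 28, 3 and 1 in skin at day 21 and 28, and 1 and 29 for SB525334 in skin at day 21 and 28. Without lung libraries of unusual composition they were 0 in lung at day 28 (with H2-Aa at -0.16, H2-DMb1 at -0.17 and Psme2 at -0.21, all reversed), 1 and 0 for SB525334 in lung at day 21 and 28, 0 for skin minus lung at day 28, and 11 for lung day 42 minus day 14. For SB525334 in lung at day 28 no filter gave 1, no plate term 1 and the deposited log2 values 5. No plate term gave 1 in skin at day 28 and 2 for skin minus lung at day 28. Without skins over the hair limit the counts were 4 and 8 in skin at day 21 and 28, 1 for SB525334 in skin at day 21, and 8, 2, 2 and 1 for skin minus lung at day 14, 21, 28 and 42. With the hair term they were 8 in skin at day 42, 11 and 1 for SB525334 in skin at day 21 and 28, and 8 for skin minus lung at day 28. The cause of these changes was not tested. Alternatives with fewer libraries have less precision, and they also redo the filter and the estimate of spread. Their counts cannot tell these apart. With the 2 groups alone lung day 7 went from 10 to 16 and lung day 28 from 12 to 1.

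Replicate numbers are shared between groups, and the labels do not say whether a number pairs samples. Of 101 same-numbered pairs 20 had deviations correlated above 0.1 (r from -0.57 to 0.36). No comparison of 14 had every pair above it, and 10 of 111 libraries correlated best with their own number. These deviations come from small sets of a group and plate, so they do not settle whether samples are paired. With the replicate block the counts by day were 9, 10, 14, 10 and 8 in lung and 22, 15, 18, 2 and 0 in skin, and for SB525334 0 and 2 in lung and 0 and 17 in skin, all within 1.5 times. The filter left out no member. H2-Oa in skin, at 0.6441 CPM per kb in PBS, was the member with the least depth.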
